A study of Mus musculus with 4 samples.

Results

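The Wnt ligands, their receptors and their secreted modulators were examined in 4 clonal mouse mammary tumor cell lines, E1, E2, M1 and M2. Members were taken by a rule on gene symbols, which used no measured value: every gene whose symbol starts with Wnt, Fzd, Sfrp, Dkk or Rspo and a number, together with the receptors and regulators Lgr4, Lgr5, Lgr6, Lrp5, Lrp6, Ror1, Ror2, Znrf3 and Rnf43, the inhibitor Wif1, and Axin1, Axin2 and the TCF/LEF factors. This gave 57 genes, measured by 58 probe sets, out of 19938 genes with a probe set of their own. Only Wnt4 had more than 1 probe set, and the brighter was used. The name rule also took in Fzd10os, a non-coding transcript opposite Fzd10, while Tcf7 was not analysed here.

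All 4 lines came from 1 spontaneous mammary tumor of a female FVB Tg MMTV/neu mouse, in which the MMTV promoter drives the rat neu (ErbB2) transgene in mammary tissue, and each line is a single clone obtained by limiting dilution. E1 and E2, the epithelial lines, came from cells sorted for high neu and high CD24 and were kept in RPMI containing 20% serum. M1 and M2, called mesenchymal-like, came from the low neu, low CD24 fraction and were kept in MEGM containing 2% serum, pituitary extract, epidermal growth factor, insulin and hydrocortisone. Type and culture medium therefore cannot be told apart in any comparison of E lines with M lines. In the study M1 formed no tumor in the mammary fat pad, whereas E1, E2 and M2 did. RNA of each line was hybridized to 1 Affymetrix mouse gene array, and levels are the authors' normalized log2 values, with a median of 6.78 over all values in the table. The level that an absent transcript would give is not known here, and having 1 array a line limits how precise each value is. No level is set against that of another single gene. Levels are set against the median of the table only as a reference point, which does not show whether a transcript is present.

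The labels of the lines were checked against marker genes. Of 8 epithelial markers, 5 were higher in E1 and E2 by limma and 0 lower, with the list's mean level at 11.75 and 11.84 in E1 and E2 and at 7.93 and 8.08 in M1 and M2. Of 8 mesenchymal markers, 5 were lower in E1 and E2 and 0 higher, with mean levels of 8.66, 8.21, 10.78 and 10.86. The keratins Krt8 and Krt18 were above 13 in all 4 lines. Lists of markers of other cell types (myoepithelial, endothelial, adipocyte and leukocyte) had means between 5.67 and 6.89 in all lines, with single genes above. The lysosomal protein gene Cd68, a marker of macrophages, was at 10.66, 8.77, 10.59 and 11.60 in E1, E2, M1 and M2, while Ptprc, Csf1r and Cd79a were below the median of all values in all lines. Cd3e was near that median, between 6.62 and 6.90, and above it in E2 and M2. The endothelial Cdh5 reached 7.58 in M1, with 5.99 to 6.72 in the other lines. The fibroblast list, of 6 genes, had mean levels of 6.53, 6.69, 7.44 and 7.05, and its members did not move together. Dcn was at 10.08 in M1 and at 5.74 or less in the other lines, Pdgfra was highest in M2 (10.20, against 8.71 in M1), and Col1a1, Col1a2, Col3a1 and Lum were each within 2-fold in the 4 lines. The part of these differences in the results for Wnt genes was not tested.

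Wnt proteins are secreted lipid-modified ligands that bind frizzled receptors. With the co-receptors Lrp5 and Lrp6 they stabilize β-catenin, which then acts in the nucleus with TCF/LEF factors, and with co-receptors such as Ror1 and Ror2 they act on cell polarity and movement without β-catenin. R-spondins bind Lgr receptors and spare frizzleds from removal by the ubiquitin ligases Znrf3 and Rnf43, while Sfrp proteins and Wif1 bind Wnts and Dkk proteins block the Lrp co-receptors. In the mammary gland Wnt signals are known for their part in duct branching and in the maintenance of stem cells, and the MMTV provirus was found to activate Wnt1 in mammary tumors.

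The epithelial and mesenchymal-like lines were compared first. By limma, 6 genes were higher in E1 and E2 (Fzd1, Fzd3, Fzd6, Fzd9, Wnt7a and Tcf7l2) and 1 was lower (Wnt10a) at an adjusted p under 0.05. These are 7 of 57, where 3.73% of all 23410 probe sets passed (2.02% higher and 1.72% lower in the epithelial lines). The median difference of the 57 genes was -0.00 on the log2 scale, as it was for all probe sets. In 20 of the 57 all 4 lines lay below the median of all values, as did 36.9% of all probe sets, and in 36 the 4 lines lay within 2-fold of each other, against 81.8% of all probe sets. The levels of the 2 types did not overlap in 26 of the 57, against 48% of all probe sets. In 6 genes both epithelial lines were at least 2-fold above both mesenchymal-like lines and in 2 at least 2-fold below, where 2.71% and 2.75% of all probe sets were. An unadjusted p under 0.05 was reached by 16 of the 57 (14 with higher and 2 with lower epithelial means) and by 18% of all probe sets. The labels name 1 culture of each line, and the p-values thus cover no spread beyond that of these clones, which includes array noise. limma also draws the variance of each probe set towards that of all probe sets. In such bulk RNA a lower level can come from fewer cells with the transcript or from less of it in each cell, which cannot be told apart. No call between the types held without E1 or without E2, each of which leaves 1 epithelial line, here or over all probe sets. When values below the median were raised to it, limma called 0 of the 57 (14 at an unadjusted p under 0.05). It then called 223 of the 23410 probe sets, against 874 without this floor. The floor changed no level of Fzd1, Fzd6, Tcf7l2 or Wnt10a, and their differences stayed the same. Their adjusted p depends on all probe sets, so these losses do not show that the 4 calls rest on dim values.

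**Figure D1:**
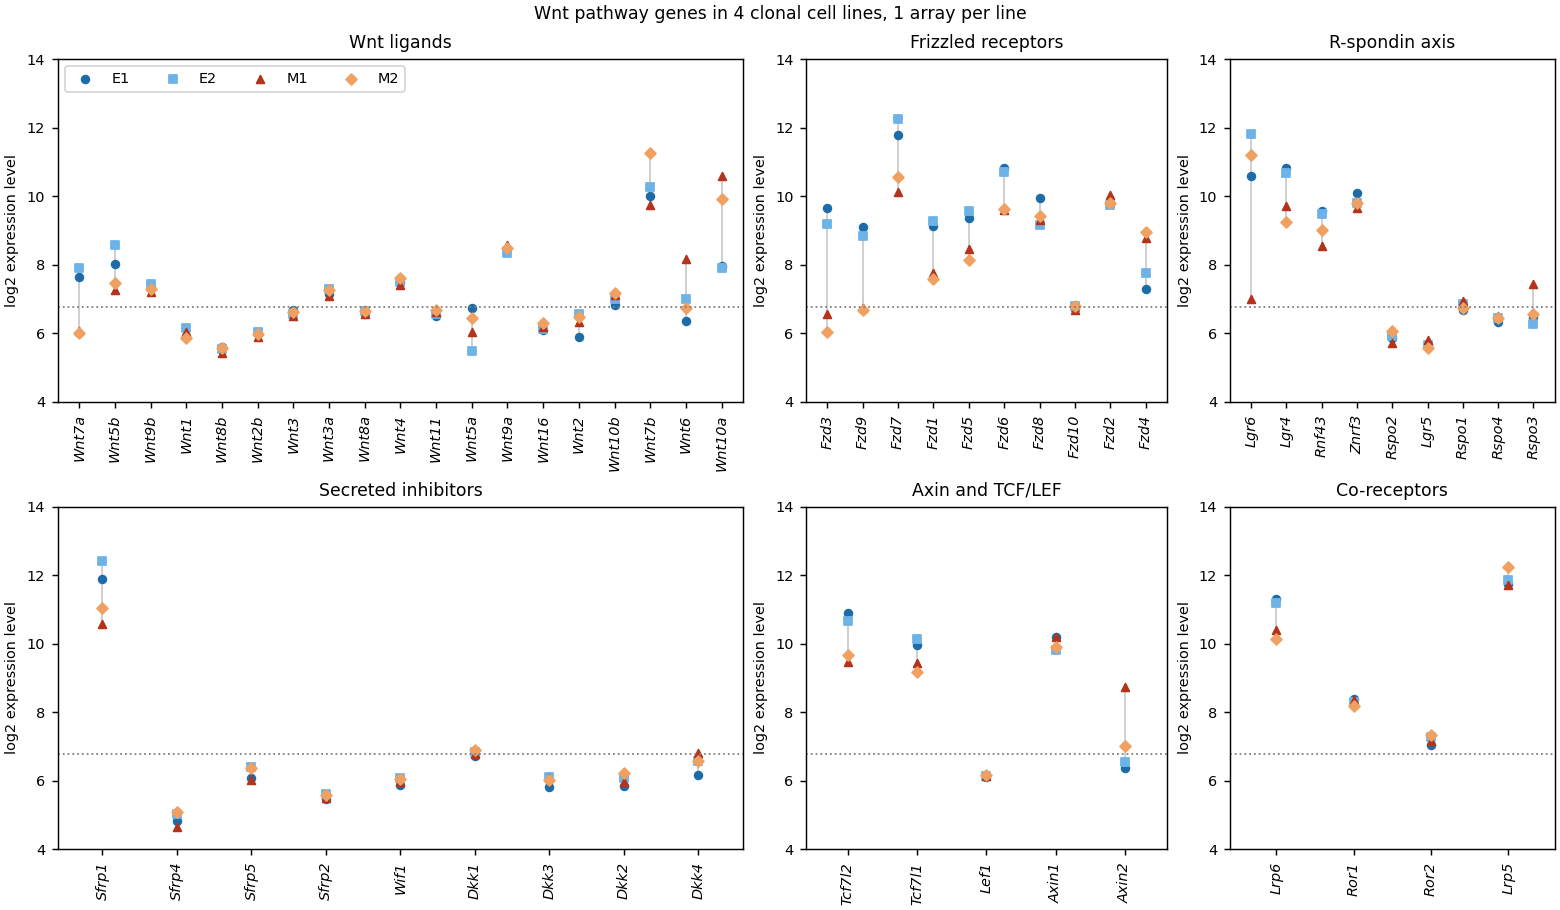
Log2 expression level (vertical axis) of 56 of the 57 genes in E1, E2, M1 and M2, in panels by role, with genes in order of the difference between the types, a grey line from the lowest to the highest line and a dotted line at the median of all values, 6.78. Circles and squares are the epithelial lines and triangles and diamonds the mesenchymal-like lines, 1 array each. They are well apart for Fzd3 and Fzd9, and M1 alone is low for Lgr6.

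Wnt ligands showed changes in single genes rather than across the 19 measured, of which 1 was higher and 1 lower in the epithelial lines by limma. Wnt10a (probe set 10347497, chromosome 1), a ligand of the β-catenin pathway, was at 7.96 and 7.91 in E1 and E2 and at 10.58 and 9.90 in M1 and M2. Both mesenchymal-like lines were above both epithelial lines, by 2.31 in the means (standard error 0.26, limma adjusted p = 0.0336), or 4.96-fold, and the call was lost when all probe sets of the array were tested (0.0546). Wnt7a (probe set 10546339, chromosome 6), which is made in the epithelium of the female reproductive tract, was at 7.63, 7.89, 6.06 and 6.01, a difference of 1.72 (standard error 0.14, limma adjusted p = 0.0159). Its level in M1 and M2 lay below the median of the table, as for Fzd3 and Fzd9, so no fold is given for these genes.

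Wnt5b, a ligand that acts largely without β-catenin, was at 8.02, 8.58, 7.25 and 7.45, with no overlap of the types and a difference of 0.94 that did not pass (limma adjusted p = 0.153). Its relative Wnt5a, the ligand of Ror2, was the only Wnt more than 2-fold apart between E1 and E2, at 6.73 and 5.48, and was at 6.02 and 6.45 in M1 and M2. The order of its lines does not follow the types, and all of its levels lay below the median of the table. Wnt7b, which is known in the mammary epithelium and is named here after its values were seen, was at 10.01, 10.26, 9.75 and 11.26, with M2 highest and M1 lowest. The remaining 13 Wnts other than Wnt6 ranged from 5.43 to 8.56, with no difference between the types above 0.24 in size, and in 8 of them all lines lay below the median of the table.

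The 10 frizzleds are the seven-pass membrane receptors to which Wnts bind. Of these, 4 were higher in E1 and E2 by limma and 0 lower, and the median difference of the family was 1.17 on the log2 scale. Their means were at least 2-fold higher in the epithelial lines in 6 and at least 2-fold lower in 1, against 4.48% and 5.25% of all probe sets. Fzd3 (probe set 10420846, chromosome 14), which is known for axon guidance and planar cell polarity, had log2 levels of 9.65 and 9.18 in E1 and E2 and of 6.55 and 6.03 in M1 and M2. Both epithelial lines lay above both mesenchymal-like lines, whose levels were under the median of the table, and the difference was 3.13 (standard error 0.27, limma adjusted p = 0.0182). Fzd6 (probe set 10423825, chromosome 15), its nearest relative in sequence, was at 10.83, 10.72, 9.59 and 9.62, with a difference of 1.17 (standard error 0.11, limma adjusted p = 0.0217). The lines of each type lay close together for Fzd6, so the groups were well separated although the difference was smaller than that of Fzd3.

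Fzd9 (probe set 10534426, chromosome 5) had log2 levels of 9.09 and 8.85 in E1 and E2 and of 6.74 and 6.68 in M1 and M2, a difference of 2.25 (standard error 0.14, limma adjusted p = 0.00807), and the levels in M1 and M2 lay below the median of the table. In the same subfamily by sequence, Fzd4, a receptor of Wnts and of norrin, went the other way. It was at 7.28, 7.76, 8.78 and 8.97, with no overlap of the types and a difference of -1.35, which did not pass (limma adjusted p = 0.0656). Fzd10, the other relative, was at 6.69, 6.79, 6.68 and 6.79 and did not separate the lines, with a difference of 0.00 (standard error 0.11).

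Fzd1, Fzd2 and Fzd7 form another subfamily. Fzd1 (probe set 10527936, chromosome 5) was at 9.12, 9.29, 7.77 and 7.58 in E1, E2, M1 and M2, a difference of 1.53 (standard error 0.14, limma adjusted p = 0.0190). Fzd7, known in the mammary gland for its part in stem cell and progenitor activity, was at 11.80, 12.25, 10.13 and 10.56, and its difference of 1.68 (standard error 0.24) just missed the threshold (limma adjusted p = 0.0580), passing it among others when each array was centred on its median (0.0482) and with an intensity trend in the variance (0.0445). Fzd2 was even, at 9.78, 9.75, 10.04 and 9.79, with a difference of -0.15 (standard error 0.14, limma adjusted p = 0.677). In the remaining pair, Fzd5 was at 9.37, 9.56, 8.45 and 8.13, with a difference of 1.18 that did not pass (limma adjusted p = 0.0547), and Fzd8 at 9.94, 9.14, 9.29 and 9.41, with the highest and the lowest level both in epithelial lines. Fzd2, Fzd4, Fzd5, Fzd8 and Fzd10 fall outside the naming rule and are given to complete the family.

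**Figure D2:**
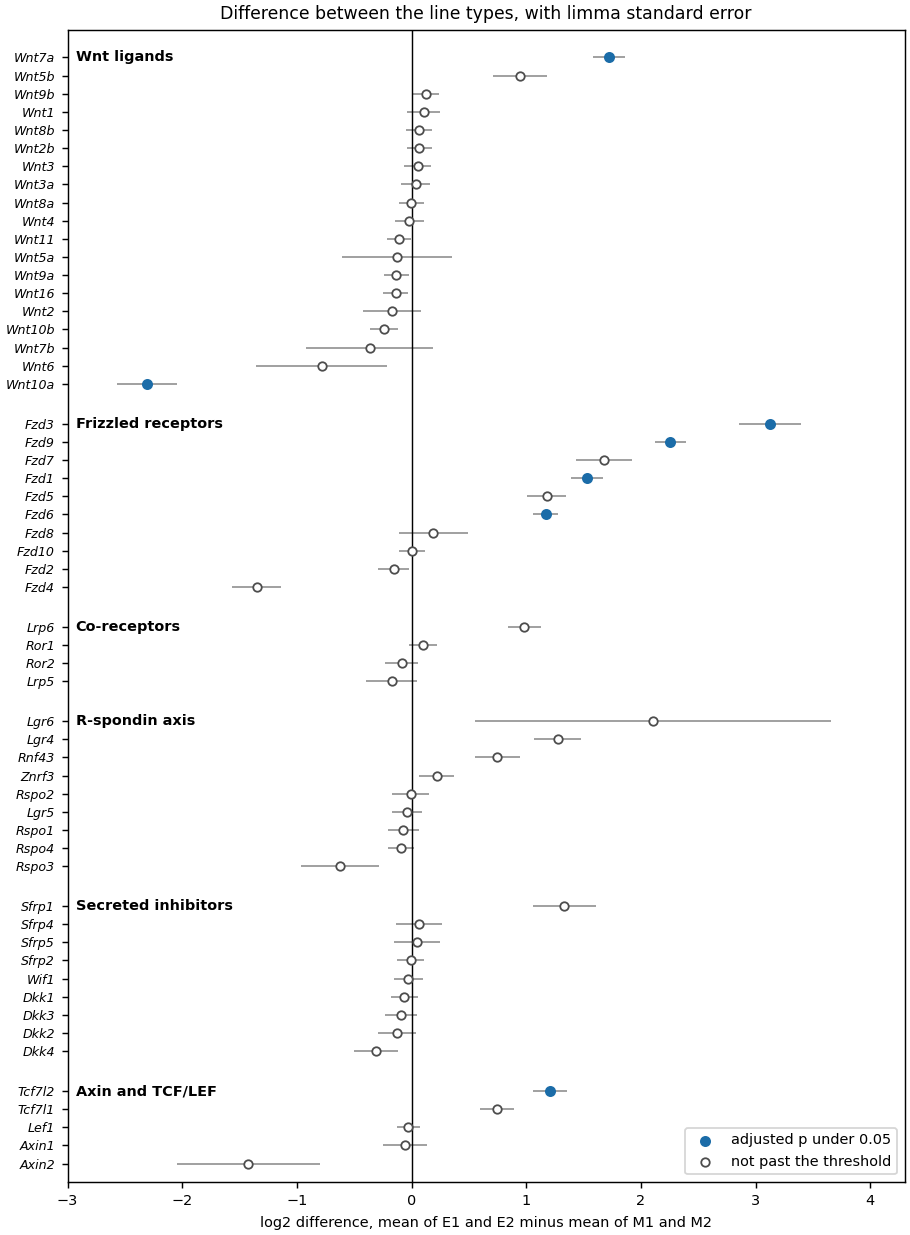
Log2 difference of the mean of E1 and E2 from the mean of M1 and M2 (horizontal axis) for 56 of the 57 genes, grouped by role, with bars of 1 limma standard error. Filled points are the 7 genes with an adjusted p under 0.05, 4 of them frizzleds, with Fzd3 farthest to the right at 3.13 and Wnt10a farthest to the left at -2.31.

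Promoter windows are shown for frizzled and Wnt genes that passed together, and for some others that hold a motif. RefSeq's table (build GRCm38.p6) held windows from 250 bases before to 50 after the start for 37 of the 57 genes, among them 4 of the 7 that passed. The table lists 45 windows for these genes, with a median GC content of 67.3% against 52.7% over all 32851 windows. The last 200 bases before the start are printed 5′ to 3′ on the strand of the gene, which is the minus strand in each case, with capitals marking an E-box (CAGGTG or its complement CACCTG, the core bound by Zeb and Snai repressors) or a TCF/LEF motif (CTTTGAT or ATCAAAG). Fzd9 (chr5:135251048-135251247), Fzd1 (chr5:4758217-4758416) and Wnt7a (chr6:91411354-91411553) passed the test. Fzd5 (chr1:64737751-64737950) and 1 of 3 listed starts of Wnt5b (chr6:119449387-119449586) did not pass, and are shown as examples of windows with the motifs. Motif letters were also in windows of Wnt2b, Lef1, Wnt4, Wif1, Wnt3a, Wnt9b, Wnt10b, Sfrp5 and Wnt11 and at another start of Wnt5b, not printed. Apart from Wnt5b, these unprinted genes differed between the types by 0.24 or less in size.
Fzd9: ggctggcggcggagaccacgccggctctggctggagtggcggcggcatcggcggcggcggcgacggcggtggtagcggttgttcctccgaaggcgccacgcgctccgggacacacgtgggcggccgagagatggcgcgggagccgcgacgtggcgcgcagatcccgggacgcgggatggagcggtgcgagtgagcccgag
Fzd1: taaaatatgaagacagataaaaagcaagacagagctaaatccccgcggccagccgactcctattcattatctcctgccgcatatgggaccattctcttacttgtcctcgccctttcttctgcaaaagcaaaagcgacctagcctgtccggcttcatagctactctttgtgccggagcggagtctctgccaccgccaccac
Wnt7a: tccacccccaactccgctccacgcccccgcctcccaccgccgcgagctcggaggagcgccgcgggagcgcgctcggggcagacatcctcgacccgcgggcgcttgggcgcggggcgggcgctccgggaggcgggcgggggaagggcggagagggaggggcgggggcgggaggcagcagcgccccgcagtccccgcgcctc
Fzd5: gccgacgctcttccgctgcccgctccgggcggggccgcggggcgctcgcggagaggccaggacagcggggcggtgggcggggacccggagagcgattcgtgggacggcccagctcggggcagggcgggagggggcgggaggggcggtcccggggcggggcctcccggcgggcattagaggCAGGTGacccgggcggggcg
Wnt5b: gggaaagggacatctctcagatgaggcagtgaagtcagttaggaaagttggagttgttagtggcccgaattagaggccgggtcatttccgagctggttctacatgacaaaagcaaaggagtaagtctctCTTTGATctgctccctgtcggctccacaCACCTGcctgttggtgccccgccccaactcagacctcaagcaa

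On either strand, the E-box letters were in 11 of the 45 windows (24.4%), where 20.2% of all windows held them, and in 0 of the 5 windows of the genes that passed. The TCF/LEF letters were in 2 of the 45 (4.44%), where 3.73% of all windows held them, and in 0 of the 5. GC content of the 300 bases was 78% for Fzd9, 76% for Wnt7a and 75.7% for Fzd5, but 54% for Fzd1. The 2 motifs share no letters in the windows shown.

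Of the 4 co-receptor genes, 0 passed (1 at an unadjusted p under 0.05). Lrp6, the co-receptor that passes a bound Wnt signal to β-catenin, was at 11.30, 11.18, 10.39 and 10.13 in E1, E2, M1 and M2. The types did not overlap, and the difference of 0.98 (standard error 0.14) missed the threshold (limma adjusted p = 0.0583), passing it with quantile normalization (0.0498). Its partner Lrp5 was highest in M2, at 11.73, 11.87, 11.71 and 12.24, with a difference of -0.17 (standard error 0.22, limma adjusted p = 0.794). Ror1 and Ror2, receptor kinases of Wnt5a, were even, Ror1 between 8.17 and 8.40 and Ror2 between 7.04 and 7.34.

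Among the R-spondins and their receptors 0 of 9 genes passed by limma between the types (2 at an unadjusted p under 0.05). Lgr4, the broadly expressed R-spondin receptor, was at 10.83, 10.67, 9.71 and 9.25, with a difference of 1.27 (standard error 0.20) that did not pass (limma adjusted p = 0.0681). Rnf43, a ligase that removes frizzleds from the membrane, was at 9.57, 9.49, 8.55 and 9.01, and its difference of 0.75 did not pass (limma adjusted p = 0.167). Znrf3, the other ligase, was even, between 9.64 and 10.08. Rspo1, Rspo2 and Rspo4 and the intestinal stem cell receptor Lgr5 ranged from 5.57 to 6.92, with no difference between the types above 0.09 in size.

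Lgr6, an R-spondin receptor known as a stem cell marker of skin, gave the largest difference between M1 and M2 among the 57 genes. Lgr6 (probe set 10357965, chromosome 1) was at 10.60 and 11.82 in the epithelial lines, at 7.01 in M1 and at 11.19 in M2. M2 lay between the epithelial lines, and M1 alone was low. The difference between the types was 2.11 with a standard error of 1.55 and did not pass (limma adjusted p = 0.608). Against E1, E2 and M2 the difference of M1 was -4.20 (standard error 0.55), and did not pass (limma adjusted p = 0.312, unadjusted p = 0.00287).

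Sfrp1, a secreted inhibitor that binds Wnts outside the cell, was at 11.88, 12.42, 10.58 and 11.05 in E1, E2, M1 and M2, with no overlap of the types and a difference of 1.33 (standard error 0.27) that did not pass (limma adjusted p = 0.109). The other 8, Sfrp2, Sfrp4, Sfrp5, Dkk1, Dkk2, Dkk3, Dkk4 and Wif1, ranged from 4.66 to 6.90 in all lines, near or below the median of the table. None differed between the types by more than 0.31, the difference of Dkk4, and 0 of the 9 inhibitors passed by limma (1 at an unadjusted p under 0.05). Dkk2 had a difference of -0.13 and Dkk3 of -0.09.

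Of the 5 Axin and TCF/LEF genes measured, Tcf7l2 passed. Tcf7l2 (probe set 10464084, chromosome 19), the TCF factor through which β-catenin acts in many epithelia, was at 10.88, 10.66, 9.45 and 9.68, a difference of 1.21 (standard error 0.15, limma adjusted p = 0.0423), which did not pass with an intensity trend (0.0542) or when all probe sets were tested (0.0704). Tcf7l1, which mostly acts as a repressor, was at 9.97, 10.12, 9.43 and 9.17, with a difference of 0.75 that did not pass (limma adjusted p = 0.102). Lef1 was even at 6.10 to 6.15, below the median of the table, and the scaffold Axin1 was between 9.81 and 10.20.

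M1, the line that formed no tumor, was then set against E1, E2 and M2. M1 stood apart in a few genes, with Axin2 and Wnt6 at least 2-fold above, and Lgr6 at least 2-fold below, every other line. This is 2 of 57 above and 1 of 57 below, where 1.53% and 0.765% of all probe sets did so. Levels of Axin2 in E1 and E2 and of Wnt6 in E1 and M2 lay below the median of the table. limma called 0 of the 57 (0.094% of all probe sets passed), and 4 had an unadjusted p under 0.05 (Axin2, Wnt6 and Rspo3 higher, Lgr6 lower), as had 7.01% of all probe sets. As M1 is 1 array, it is assumed to vary like the other lines. Leaving out M2 sets M1 against E1 and E2 only, which crosses type and medium, and calls then rose over all probe sets as well.

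Axin2 (probe set 10382228, chromosome 11), a feedback inhibitor that β-catenin itself induces and a standard readout of the pathway, was at 6.37 and 6.54 in the epithelial lines, at 8.74 in M1 and at 7.02 in M2. M1 was 1.72 above M2, the nearest line, and 2.10 above the mean of the other 3 (standard error 0.32, limma adjusted p = 0.366, unadjusted p = 0.00454). Wnt6 was at 6.34, 6.99, 8.17 and 6.72, so that M1 stood 1.49 above the mean of the others (standard error 0.31, limma adjusted p = 0.496, unadjusted p = 0.0119). Wnt6 and Wnt10a are next neighbours on chromosome 1, and M1 was the highest line for both, standing 1.45 above M2 for Wnt6 and 0.68 above M2 for Wnt10a. The other 3 pairs of neighbours among the Wnts, Wnt3a with Wnt9a, Wnt9b with Wnt3 and Wnt10b with Wnt1, had differences between the types of 0.24 or less in size. Rspo3 was at 6.46, 6.27, 7.43 and 6.55, with M1 standing 1.01 above the mean of the others (standard error 0.17, limma adjusted p = 0.400, unadjusted p = 0.00601). All lines other than M1 lay below the median of the table for Rspo3.

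The 2 lines of a type were also compared directly, with 1 array each and no test. M1 and M2 were at least 2-fold apart in 4 of the 57 genes, where 5.86% of all probe sets were, with Axin2 and Wnt6 higher in M1 and Lgr6 and Wnt7b lower (3.22% and 2.64% of all probe sets). M2 was at least 2-fold above every other line in 0 of the 57 and at least 2-fold below in 0, where 1.31% and 0.842% of all probe sets did. Lgr6, at 18.2-fold, was the only one at least 4-fold apart, where 1.53% of all probe sets were. That is above the fold between M1 and M2 by which the study selected genes on these same arrays, so Lgr6 is not independent evidence. E1 and E2 were at least 2-fold apart in 2 of the 57, Wnt5a, higher in E1, and Lgr6, higher in E2, where 2.24% of all probe sets were. Over the 57 genes the root mean square log2 difference was 0.36 between E1 and E2, 0.72 between M1 and M2, and from 0.88 to 1.14 between an epithelial and a mesenchymal-like line. Over all probe sets these distances were 0.39, 0.57 and from 0.88 to 0.90. Lgr6 decides the value between M1 and M2, which is 0.46 without it, an alternative chosen after seeing the data, and the distances are then 0.32 between E1 and E2 and from 0.89 to 0.98 between the types.

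**Figure D3:**
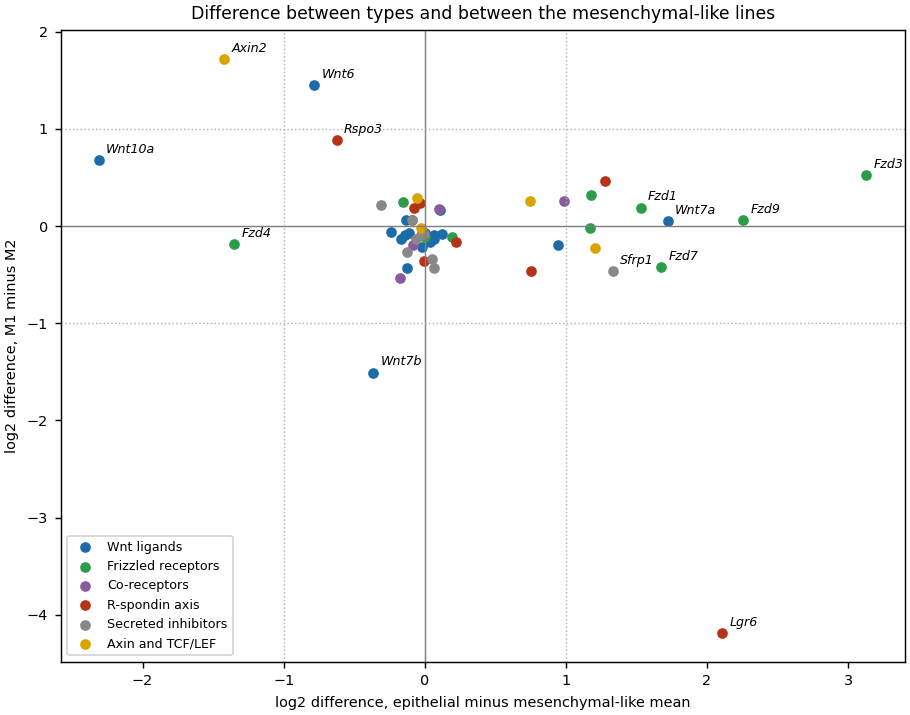
Log2 difference between the types (horizontal axis, epithelial minus mesenchymal-like mean) against that between M1 and M2 (vertical axis) for 56 of the 57 genes, coloured by role, with dotted lines at 2-fold. The frizzleds spread along the horizontal axis with little difference between M1 and M2, whereas Lgr6 at -4.19 and Axin2 at 1.72 lie far along the vertical axis.

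The rest of the pathway was read from 50 genes of the cytoplasm, of planar cell polarity and of Wnt secretion. Of these, 4 were higher in E1 and E2 by limma, 1 was lower and 45 did not pass. Over all probe sets 2.02% were higher and 1.72% lower. The median difference was 0.17, against -0.0018 over all probe sets. Nkd2, which binds Dvl proteins and dampens Wnt signals, was at 11.00, 11.91, 6.23 and 6.47 in E1, E2, M1 and M2, a difference of 5.10 (standard error 0.35, limma adjusted p = 0.0110). Tnik, a kinase that activates TCF complexes, was at 10.08, 9.82, 6.71 and 6.68 (difference 3.25, limma adjusted p = 0.00395). The planar polarity protein Prickle2 was at 7.84, 7.95, 6.02 and 5.75 (difference 2.01, limma adjusted p = 0.0125) and the corepressor Tle1 at 9.80, 9.77, 8.07 and 8.33 (difference 1.59, limma adjusted p = 0.0183). All 4 were separated between the types, and for Nkd2, Tnik and Prickle2 both mesenchymal-like lines lay below the median of the table.

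Apcdd1, a membrane inhibitor of Wnt signals, went the other way, at 6.55 and 6.74 in E1 and E2 and at 10.48 and 10.55 in M1 and M2, a difference of -3.88 (standard error 0.12, limma adjusted p = 0.00284). Apcdd1 was the only 1 of the 5 that still passed when values below the median were raised to it. That floor sets E1 and E2 to the same value for Apcdd1 and so removes their spread, and the pass adds no support. Without E1 or without E2 limma called 0 of the 50 (8 and 10 at an unadjusted p under 0.05). β-catenin itself (Ctnnb1), named after its values were seen, was at 13.03, 13.13, 12.47 and 12.45, and its difference of 0.62 did not pass (limma adjusted p = 0.0827).

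Of 28 reported Wnt target genes measured, 6 were also members. By limma 1 of the 28 was higher in the epithelial lines and 1 lower, where 2.02% and 1.72% of all probe sets were. Their means were at least 2-fold higher in the epithelial lines in 4 and at least 2-fold lower in 8, against 4.48% and 5.25% of all probe sets. An unadjusted p under 0.05 by limma was reached by 9 of the 28 and by 18% of all probe sets. The adhesion protein Nrcam was at 10.58, 10.29, 6.21 and 6.22 in E1, E2, M1 and M2 (difference 4.22, standard error 0.15, limma adjusted p = 0.00284). Twist1, a transcription factor that drives mesenchymal transition, was at 6.29, 6.24, 9.27 and 9.99 (difference -3.36, standard error 0.27, limma adjusted p = 0.0161). Both calls were lost without E1 or without E2, as was every other call over all probe sets. Bmp4 and Fosl1 had larger or similar differences but were uneven between M1 and M2. Bmp4 was at 5.89, 6.08, 11.80 and 9.37 (limma adjusted p = 0.0953) and Fosl1 at 7.43, 7.96, 10.08 and 12.71 (limma adjusted p = 0.164), with M1 higher for Bmp4 and M2 for Fosl1.

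M1 was the highest line in 10 of the 28 targets and the lowest in 7. It was at least 2-fold above every other line in 5 and at least 2-fold below in 1, where 1.53% and 0.765% of all probe sets were. The 5 were Axin2, Bmp4, Fst, Ccn4 and Ccn5, of which Fst was already shown for M1 in the study's selection of genes on these same arrays and so is not independent evidence, and Fst, Ccn4, Ccn5 and Id2 are named here after their values were seen. Ccn4, known as Wnt1-inducible signaling pathway protein, was at 6.96, 6.25, 9.06 and 6.58 in E1, E2, M1 and M2, and M1 was 2.47 above the mean of the other lines (standard error 0.33, limma adjusted p = 0.325). Ccn5, of the same family, was at 7.57, 7.86, 10.72 and 8.41, with M1 standing 2.78 above the others (standard error 0.39, limma adjusted p = 0.343). Id2, an inhibitor of basic helix-loop-helix factors, was the target at least 2-fold below every other line, at 12.36, 12.64, 9.73 and 10.89. limma called 0 of the 28 in M1 against the other lines, with 4 higher and 1 lower at an unadjusted p under 0.05. That lower gene was Cd44, and not Id2, with levels of 11.50, 11.53, 10.67 and 11.52. Rnf43 and Znrf3, also listed as targets, were lowest in M1, at 8.55 and 9.64, by less than 2-fold. Nkd1, a feedback inhibitor, was between 7.41 and 7.48 in the 4 lines. Notum, Sp5 and Lgr5 were below the median of the table in all lines and Tnfrsf19 was near it, between 6.56 and 6.82. Each stayed within 2-fold in the 4 lines, so M1 did not stand apart, but at such levels a difference could be missed. Some lines other than M1 were also below the median for Axin2, Bmp4, Fst and Ccn4. Cd44, Znrf3, Nkd1, Notum, Sp5, Lgr5 and Tnfrsf19 are named after their values were seen. Of the 6 fibroblast markers given above, Dcn, which like Fst is in the study's selection, was highest in M1, Pdgfra was highest in M2 and the others were within 2-fold, and their part in these results was not tested.

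**Figure D4:**
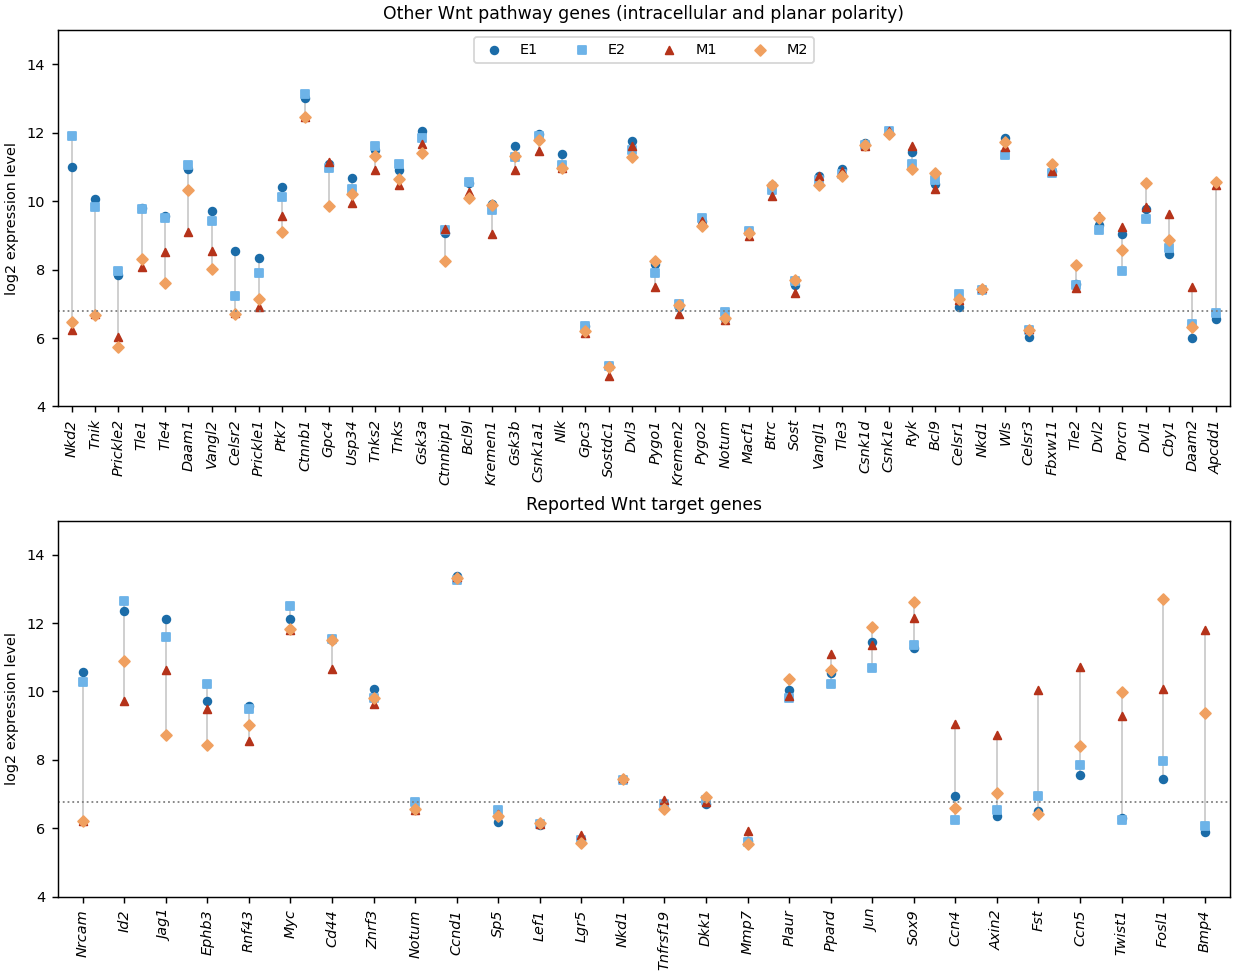
Log2 expression level (vertical axis) in E1, E2, M1 and M2 of 50 other pathway genes (top) and 28 reported target genes (bottom), in order of the difference between the types, with symbols as in the key and a dotted line at the median of all values. Nkd2 and Apcdd1 at the ends of the top panel separate the types by 5.10 and -3.88, and M1 alone is high for Axin2, Fst, Ccn4 and Ccn5 in the bottom panel.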

How the data were processed

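RNA of 4 clonal lines was measured on Affymetrix MoGene 1.0 ST arrays, 1 per line. The deposited values are log2 expression levels that the authors normalized from exported array files. The labels name Partek without a version, and background correction and summarization are not given in the sources used here. For RNA extraction the labels name Trizol, whereas a column kit is named in the methods. Values were used without further scaling. Of 35556 probe sets, the platform's annotation names 1 gene for 21789 and several for 1621, and these 23410 were tested. Of the single symbols, 21698 were found by gene identifier in a RefSeq table and 0 changed. Differences were tested by lmFit and eBayes of limma 3.58.1, under R 4.3.3 (with 2 residual degrees of freedom), with p-values adjusted over all 23410 probe sets by Benjamini and Hochberg and a threshold of 0.05. The test was run on values simulated from limma's own fitted variances, which cannot show whether that model holds for these arrays. Members, lists and tests were chosen with earlier results of these data known.

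Genes named are those past the threshold, up to 4 per role with the largest difference between the types, and those that differ 4-fold or more from M1 to M2 or 2-fold or more from E1 to E2. Others are marked or given by range. From the other lists, genes that passed and up to 4 with the largest difference are named. Of 30 target genes listed, 28 have a named probe set, 2 of them under a later symbol. Alternatives tried were a raised floor, arrays centred on their median, quantile normalization, a filter on dim probe sets, other forms of eBayes, all probe sets tested, the dimmer probe set, other thresholds, the clone number as a block and each line left out.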

Additional observations from a re-analysis of the deposited data

How the results depend on the processing

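Among the 57 genes, 7 passed between the types in the main fit, where 874 of the 23410 probe sets did. With a raised floor 0 passed (223 of all probe sets). With the clone number as a replicate block 2 passed (Fzd3 and Fzd9, with 319 of all probe sets). At an adjusted p under 0.1, 12 passed. Leaving out 1 line leaves a type with a single line. No call then held without E1 or without E2. Without M1 or without M2 more genes passed, both among the 57 and over all probe sets. From 5 to 9 of the 57 passed under quantile normalization, centring, bright probe sets only, an intensity trend, a robust prior and all probe sets tested. Of the 50 other pathway genes, 5 passed, but 1 with the raised floor, 3 with the block and from 0 to 8 without 1 line. Of the 28 targets, 2 passed, but 0 with the raised floor (4 at an unadjusted p under 0.05 by limma), 1 with the block and from 0 to 10 without 1 line. In M1 against the other lines, 0 of 57 passed by limma (4 at an unadjusted p under 0.05), 1 with the raised floor (Rspo3, whose other 3 lines the floor sets to the same value) and from 0 to 13 without 1 line. At 4-fold, 1 of the 4 genes apart between M1 and M2 and 0 of the 2 apart between E1 and E2 were left, and the raised floor left 1 of the latter. Small differences changed sign with the line left out, from -0.24 to 0.13 for Axin1, -0.44 to 0.092 for Lrp5, -0.20 to 0.027 for Ror2, -0.26 to 0.0055 for Dkk2, -0.22 to 0.042 for Dkk3 and -0.76 to 0.50 for Wnt5a. The cause was not tested. Clone numbers are names and do not pair the lines (correlation of deviations -0.04).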
